A study of Mus musculus with 4 samples.

Results

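The 5 genes described here encode the receptors through which histamine and the orexins (hypocretins) act on cortical cells: the histamine receptors Hrh1, Hrh2 and Hrh3 and the orexin receptors Hcrtr1 and Hcrtr2. They were chosen by symbol, and each symbol matched 1 of the 32286 features in the deposited tables. RNA was measured in single nuclei of the primary motor area of the cerebral cortex, from mice of the C57BL/6N strain. There were 4 libraries, 1 per group. The first came from mice that slept ad libitum without sleep deprivation, and the second from mice kept awake by gentle handling. The third and the fourth came from mice whose cortex received, by local administration, an adeno-associated virus of serotype 8 (AAV8) carrying FLAG-tagged SIK3. SIK3 is a salt-inducible kinase, and it was either the wild-type form (WT) or the Ex13del form, which the series describes as gain-of-function. The human synapsin promoter, which is active in neurons, drove both vectors. Ages, sexes, the duration of the deprivation, the number of animals in a library and the sleep of the animals given a virus are not given in the sources used here.

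Histamine is made by neurons of the tuberomammillary nucleus and the orexins by neurons of the lateral hypothalamus. Both groups of neurons fire mainly in wakefulness and send axons to the cortex. The H1 receptor couples to Gq and phospholipase C, and drugs that block it in the brain cause sleepiness. The H2 receptor couples to Gs and raises cyclic AMP. The H3 receptor couples to Gi/o and sits on histamine axons as an autoreceptor and on the terminals of other neurons as a heteroreceptor. Orexin receptor 1, encoded by Hcrtr1, prefers orexin A, whereas orexin receptor 2, encoded by Hcrtr2, binds both orexins, and both receptors couple chiefly to Gq. Loss of orexin receptor 2 causes narcolepsy in dogs.

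All positions are on mm10, from the GENCODE annotation. Hrh1 (ENSMUSG00000053004) lies on the plus strand of chromosome 6 from 114397936 to 114483296. Hrh2 (ENSMUSG00000034987) lies on the plus strand of chromosome 13 from 54192129 to 54236180. Hrh3 (ENSMUSG00000039059) lies on the minus strand of chromosome 2 from 180099465 to 180104488. Hcrtr1 (ENSMUSG00000028778) lies on the minus strand of chromosome 4 from 130130217 to 130139359. Hcrtr2 (ENSMUSG00000032360) lies on the minus strand of chromosome 9 from 76225880 to 76323856. Annotated antisense genes overlap an exon of Hrh2 (Gm16578, 90 UMIs beside 3243 for Hrh2) and an exon of Hrh3 (Gm17180, 25 UMIs beside 7065), and 1 lies within an intron of Hcrtr2 (Gm27234, 63 UMIs beside 2715). Whether the counting used strand is not given in the sources used here, so a small part of these counts may belong to the antisense partner. UMIs are unique molecular identifiers, each standing for 1 captured RNA molecule.

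SIK3 is known to phosphorylate the CRTC coactivators of CREB, a factor that binds the full site TGACGTCA and its shorter form TGACG. The windows at the starts of Hcrtr2 and Hrh3 are printed because these genes gave the lead differences of opposite direction between the sleep deprivation and ad lib libraries. Each runs from 250 bases before to 50 after a start, on the gene's strand, from RefSeq on GRCm38.p6. Capitals mark a TGACG match, here read on the opposite strand.
Hcrtr2, chr9:76323574-76323873, minus strand: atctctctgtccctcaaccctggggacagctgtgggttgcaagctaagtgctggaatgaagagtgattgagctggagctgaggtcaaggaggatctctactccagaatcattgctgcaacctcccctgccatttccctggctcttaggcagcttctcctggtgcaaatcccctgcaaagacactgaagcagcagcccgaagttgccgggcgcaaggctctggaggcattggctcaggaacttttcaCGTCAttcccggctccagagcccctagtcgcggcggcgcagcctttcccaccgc
Hrh3, chr2:180104358-180104657, minus strand: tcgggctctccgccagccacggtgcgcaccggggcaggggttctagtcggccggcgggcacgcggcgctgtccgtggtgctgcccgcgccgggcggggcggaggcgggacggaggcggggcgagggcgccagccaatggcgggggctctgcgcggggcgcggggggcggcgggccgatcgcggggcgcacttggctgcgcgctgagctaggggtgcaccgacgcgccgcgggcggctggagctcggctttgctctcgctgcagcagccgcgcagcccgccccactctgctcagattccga
The Hcrtr2 window had 58% G and C and 1 TGACG match, which begins 4 bases before the start. This RefSeq start lies 233 bases inside the GENCODE start given above, and that of Hrh3 lies 81 bases inside. The Hrh3 window had 79% G and C and no match of either form. The 5 genes have 11 such windows, and none of the other 10 held either form. Over all 32851 windows of this length, on both strands, 1.79% held TGACGTCA and 20.8% held TGACG, which includes every full site. A match is a description of letters and not evidence of binding, and no reading of the factor is drawn from a window without one.

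The libraries held 43655557 to 54070503 UMIs in 5944 to 9438 barcodes each, and 25408 nuclei were kept of 28619 barcodes. Between 8 and 14 cell barcodes were shared by any pair of libraries. No cell type annotation was used from the authors, so nuclei were clustered and 20 types were named from markers. A name stands for nuclei that resemble the type by those markers. The summed level of a type's own marker list was highest in that type for 18 of 20 types, the exceptions being layer 5 extratelencephalic and layer 6 intratelencephalic neurons. Nuclei with striatal markers (1141 nuclei, 3.29% to 7.31% of a library) were present although the label is motor cortex. The sleep deprivation library stood apart. Its excitatory nuclei had a median of 13990 UMIs against 7408 to 9967 in the others, and 29.6% of its nuclei fell in a cluster of low depth that took no name, against 9.003% to 13.7%. With 1 library per group there is no replicate, so no difference between groups can be tested and none is given a p-value.

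Levels are CPM, the UMIs of a gene scaled to a total of 1000000 UMIs over the nuclei of a type in a library. Lists of 4 values are in the order ad lib sleep, sleep deprivation, WT SIK3 and Ex13del SIK3. A mean ± SD is over these 4 libraries, so its spread holds the differences between groups as well as sampling. Types are called apart only where their 4-library ranges do not overlap. Levels are compared between types for 1 gene at a time and never between genes. Intervals are exact, at the 95% level, and cover counting error only.

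Hrh1 was highest in astrocytes, at 60.9 ± 14.5 CPM (SD, n = 4). The libraries gave 73.4, 43.5, 72.3 and 54.6 CPM, astrocytes ranked first in all 4, and their range lay above the range of each of the 19 other types. The low value was that of the sleep deprivation library. Of 1796 astrocyte nuclei, 14.8% had at least 1 Hrh1 UMI at a median depth of 2775 UMIs, against 1.11% of oligodendrocytes at 1989 UMIs and 0.426% of microglia at 1674.5 UMIs. A second tier held layer 6b neurons (32.9 ± 6.12 CPM), layer 4/5 intratelencephalic neurons (29.3 ± 7.19 CPM) and oligodendrocyte precursors. In the precursors the values were 26.3, 26.5, 27.3 and 26.9 CPM, the smallest spread between libraries of any Hrh1 level in this tier. Only 48 of 552 precursor nuclei had an Hrh1 UMI, so this small spread is not a measure of precision. Layer 6, layer 5 and layer 2/3 intratelencephalic neurons, which project within the cortex and to the striatum, followed at 24.5, 21.2 and 17.9 CPM. Neighbours within this tier, from layer 6b to layer 2/3 with Lamp5 interneurons at 20.7 CPM among them, overlapped in their ranges. Near-projecting neurons of layers 5 and 6 stood below it at 11.4 CPM. Hrh1 was at 5.74 CPM in layer 6 corticothalamic neurons, at 2.21 CPM in Pvalb interneurons and at 1.33 CPM in layer 5 extratelencephalic neurons. Extratelencephalic nuclei gave 14 Hrh1 UMIs in 670 nuclei at a median of 13365 UMIs, the deepest type here. Intratelencephalic layer 5 nuclei gave 452 UMIs in 1661 nuclei at 11095.

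Astrocytes were not uniform in Hrh1. When they were clustered again, a group of 275 nuclei led by Lgr6, Trpm3 and Mgat4c had 121.9, 69.7, 137.4 and 125.6 CPM, and it was lowest in the sleep deprivation library. A group of 186 nuclei led by Myoc, Mrc1 and Acta2, where Mrc1 marks border macrophages and Acta2 smooth muscle, had a mean of 10.7 CPM. Among inhibitory neurons, a sub-cluster of 160 nuclei led by Ndnf, a gene of neurogliaform cells in layer 1, matched Lamp5 markers. Of its nuclei, 112 (70%) came from the Lamp5 type, and it had 33.8, 43.8, 32.8 and 28.9 CPM. Its range lay above the 2.97 to 7.58 CPM of Sst interneurons as a whole.

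Hrh2 was highest in Vip interneurons, with 64.4, 68.2, 66.7 and 68.5 CPM (67.0 ± 1.86, SD, n = 4). These are inhibitory neurons that mostly contact other inhibitory neurons. Near-projecting neurons were next, with 82.4, 69.1, 57.6 and 44.1 CPM (63.3 ± 16.3). The ranges of the pair overlapped, each ranked first in 2 libraries, and both lay above every one of the other 18 types. The Vip type holds a sub-cluster of 180 nuclei that matched markers of Sncg interneurons, which carry the cannabinoid receptor Cnr1. It had 94.5, 88.9, 91.5 and 86.9 CPM of Hrh2, above the whole Vip type in every library. A smaller Vip sub-cluster of 72 nuclei led by Crispld2, Crh and Vip had a mean of 91.3 CPM from 37 UMIs.

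A middle group for Hrh2 comprised Sst interneurons (32.6 CPM), layer 2/3 intratelencephalic neurons (30.1 ± 1.99 CPM), Lamp5 interneurons (28.9 CPM), layer 5 extratelencephalic neurons (25.9 CPM) and Pvalb interneurons (22.7 CPM). Neighbours in that group did not differ beyond their ranges. Layer 2/3 nuclei held 28.4% of all Hrh2 UMIs in kept nuclei, the largest share of any type, beside 17.6% of all UMIs. Hrh2 was at 5.07 CPM in layer 6 corticothalamic neurons and at 1.002 to 3.42 CPM in 6 of the 7 non-neuronal types. The exception was microglia, the immune cells of the brain, with 15.98, 34.7, 9.99 and 28.8 CPM. This rests on 28 UMIs in 704 nuclei. In microglia the Hrh2 level was 164% of that in the low-depth nuclei. In the same comparison Slc17a7, the vesicular glutamate transporter of excitatory neurons, was at 36.6% in microglia. What the low-depth nuclei are was not tested. Their markers were closest to excitatory neurons, and their Slc17a7 level (434 CPM) was above the 237 CPM of that class.

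Hrh3 was highest in Lamp5 interneurons, with 114.5, 105.1, 87.7 and 75.3 CPM (95.7 ± 17.5, SD, n = 4), and these ranked first of the 20 types in all 4 libraries. Layer 5 intratelencephalic neurons (68.5 CPM), striatal projection neurons (66.3 CPM), layer 4/5 intratelencephalic neurons (65.6 CPM), Pvalb interneurons (62.6 CPM) and near-projecting neurons (61.7 CPM) came next, and their ranges overlapped each other. Layer 5 intratelencephalic nuclei alone held 21.2% of the Hrh3 UMIs. Within the intratelencephalic neurons the layers differed: layer 5 and layer 4/5 lay apart from layer 6 (26.5 CPM) and from layer 2/3 (14.7 CPM) by range. The lowest neuronal level was 10.9 CPM, in layer 6 corticothalamic neurons. Within the Pvalb type, a sub-cluster of 227 nuclei that took no subclass name, with Antxr2, Ptprk, Corin and the vector element WPRE_pA among its leading genes, had 110.1, 141.2, 100.6 and 61.6 CPM.

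Hrh3 was also found at low levels in glia. The unnamed low-depth nuclei had 68.3, 72.1, 78.7 and 69.8 CPM of Hrh3 and a mean of 72.2 CPM, above the mean of 19 of the 20 named types. Lamp5 interneurons were the exception. Oligodendrocytes, oligodendrocyte precursors, microglia, astrocytes and pericytes had 20.5 to 25.9 CPM of Hrh3. That is 28.4% to 35.8% of the level in the low-depth nuclei, and Slc17a7 in the same 5 types was at 20.6% to 36.6%. So both genes lay at a like fraction of the low-depth level, and whether the Hrh3 UMIs of these types come from their own RNA was not tested. Endothelial cells had 43.9 CPM, or 60.8%, beside 46.7% for Slc17a7. Hrh1 in astrocytes was at 346% of its level in the low-depth nuclei, beside 26.8% for Slc17a7.

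**Figure D1:**
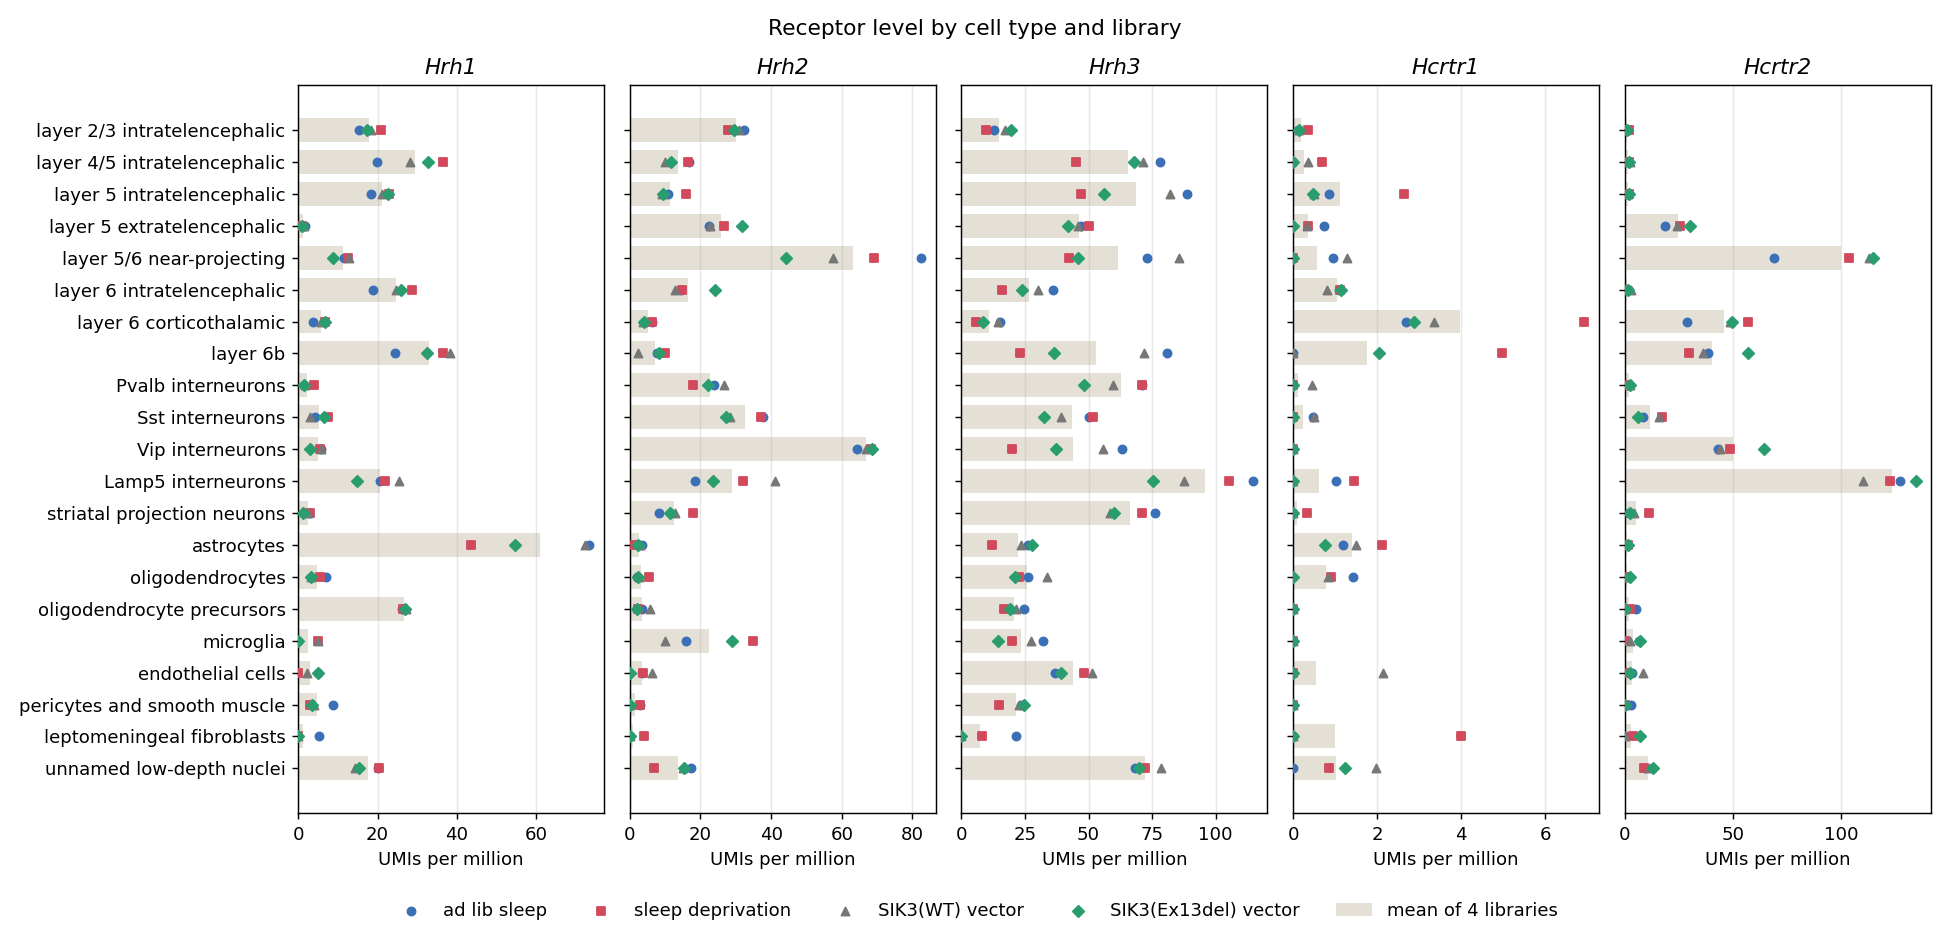
Level of each receptor gene in the 20 named cell types, in CPM on a separate axis for each gene; bars are means of the 4 libraries and points are the single libraries. Hrh1 peaks in astrocytes (60.9), Hrh2 in Vip interneurons (67.0) and near-projecting neurons (63.3), Hrh3 and Hcrtr2 in Lamp5 interneurons (95.7 and 123), and Hcrtr1 in layer 6 corticothalamic neurons (3.96).

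Hcrtr1 was scarce, with 177 UMIs in all kept nuclei, and 94 of these (53.1%) lay in layer 6 corticothalamic neurons, which send axons to the thalamus. This type had 2.70, 6.93, 3.35 and 2.88 CPM (3.96 ± 1.996, SD, n = 4; 2.98 without the sleep deprivation library) and ranked first in all 4 libraries. Its range lay above those of 17 of the 19 other types and overlapped with layer 6b neurons (1.75 CPM from 4 UMIs) and with leptomeningeal fibroblasts (1 UMI). At least 1 Hcrtr1 UMI was found in 2.65% of the 2717 corticothalamic nuclei at a median of 7795 UMIs, against 0.160% of layer 4/5 intratelencephalic nuclei at 7920.5. Layer 5 intratelencephalic neurons, with 24 UMIs, had 0.846, 2.64, 0.508 and 0.463 CPM. No Hcrtr1 UMI was found in Vip interneurons, oligodendrocyte precursors, microglia or pericytes. Over the pooled libraries a count of 0 allows up to 0.667, 1.49, 2.25 and 2.07 CPM in these types (3 UMIs of each total). All 4 limits lie below the lowest corticothalamic library.

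Hcrtr2 was highest in Lamp5 interneurons, with 126.9, 122.6, 109.9 and 134.4 CPM (123 ± 10.3, SD, n = 4). These nuclei made up 1.67% of all kept nuclei and held 14.8% of the Hcrtr2 UMIs. Near-projecting neurons followed with 69.0, 103.6, 112.6 and 114.8 CPM (99.98 ± 21.2), where the ad lib library was low. The Lamp5 and near-projecting ranges overlapped, and both lay above all of the other 18 types. A lower tier held Vip interneurons (50.003 ± 9.91 CPM), layer 6 corticothalamic neurons (28.7, 56.9, 48.8 and 49.5 CPM) and layer 6b neurons (40.3 ± 11.7 CPM), which overlapped. Layer 5 extratelencephalic neurons were lower in the mean, at 24.6 CPM, but their highest library (30.2 CPM) exceeded the lowest corticothalamic and layer 6b values. Corticothalamic nuclei made up 10.7% of kept nuclei and held 40.1% of the Hcrtr2 UMIs.

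Several neuron types of greater depth had very little Hcrtr2. The 4 intratelencephalic types had 1.18 to 1.69 CPM, and Pvalb interneurons had 1.93 CPM from 17 UMIs in 910 nuclei. At least 1 Hcrtr2 UMI was found in 38.0% of Lamp5 nuclei at a median of 6805 UMIs, against 1.87% of Pvalb nuclei at 8510.5. Thinned to 2000 UMIs per nucleus, with shallower nuclei left out, the share was 16.7% of 418 Lamp5 nuclei and 2.39% of 795 Sst nuclei. Layer 6 intratelencephalic neurons, which share a layer with the corticothalamic type, had 12 Hcrtr2 UMIs in 968 nuclei, beside 1088 in 2717 corticothalamic nuclei.

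Clustering again within the neurons resolved the Hcrtr2 signal further. Inhibitory sub-cluster 5, a Lamp5 group of 281 nuclei led by Sv2c and Pde11a, had 129.7, 119.9, 157.6 and 148.1 CPM. The Ndnf-led group described for Hrh1, with 70% of its nuclei from the Lamp5 type, had a mean of 17.6 CPM. Inhibitory sub-cluster 18 held 32 nuclei, all from the Lamp5 type, led by Dchs2, Hapln1 and Mctp2. It had 588, 393, 97.5 and 403 CPM from 95 UMIs. Hcrtr2 itself was among its leading genes. It took no subclass name because Vcan, a marker of oligodendrocyte precursors, was among them too, and its WT SIK3 value was far below the others. The corticothalamic neurons split into 3 sub-clusters. Excitatory sub-cluster 3 (418 nuclei, led by Nxph2, Sema5a, Hcrtr2 and Ddo) had 85.3, 133, 115 and 148 CPM of Hcrtr2. Sub-cluster 4 (1014 nuclei, led by Cpa6 and Cntnap4) had 15.9, 62.1, 43.3 and 29.98 CPM, and sub-cluster 10 (1195 nuclei) had 15.7, 25.1, 27.2 and 33.3 CPM. The range of sub-cluster 3 lay above those of the other two. Hcrtr1 was at 5.79 CPM in sub-cluster 3, at 5.78 CPM in sub-cluster 4 and at 1.79 CPM in sub-cluster 10.

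**Figure D2:**
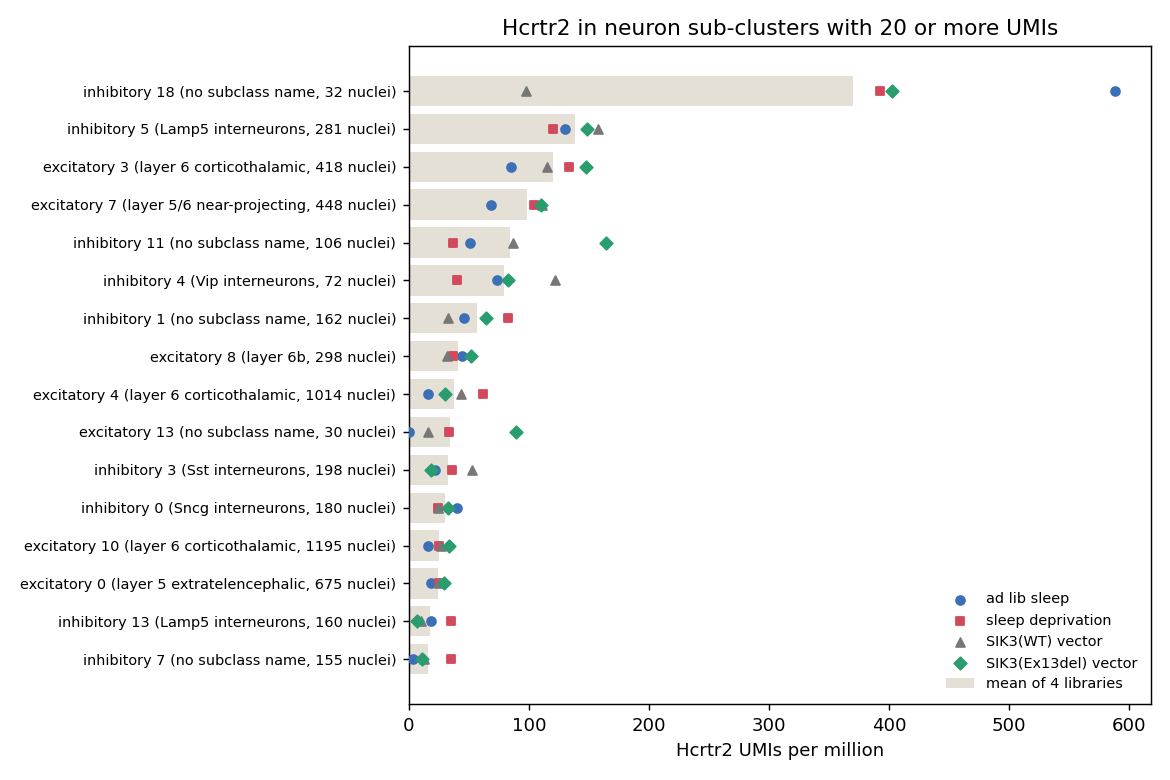
Hcrtr2 level, in CPM, in the neuron sub-clusters with at least 20 Hcrtr2 UMIs; bars are means of 4 libraries and points are single libraries. Inhibitory sub-cluster 18 (32 nuclei) has the highest mean, 370, with a wide spread, and corticothalamic sub-cluster 3 (120) stands above sub-clusters 4 (37.8) and 10 (25.3).

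Some types carried several of the receptors. At least 1 UMI of any of the 5 genes was found in 73.8% of Lamp5 nuclei, 68.6% of near-projecting nuclei and 66.6% of layer 5 intratelencephalic nuclei. The share was 32.1% in layer 6 corticothalamic nuclei and 6.62% to 21.6% in non-neuronal types, whose depth is lower. UMIs of 2 or more of the genes were found in 32.8% of Lamp5 and 30.5% of near-projecting nuclei. Hrh3 and Hcrtr2 were found together in 81 of 424 Lamp5 nuclei, where the product of their shares in each library summed to 77.7. In layer 2/3 nuclei, Hrh1 and Hrh2 were found together in 164 of 2623, beside 123 from the product of shares. Deeper nuclei show more of every gene, so a count above the product is a description of these nuclei. Across the 20 types, the levels of Hrh2 and Hrh3 (Pearson r = 0.54) and of Hrh2 and Hcrtr2 (r = 0.51) were the most alike of the 10 pairs on the log2 scale.

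For each receptor, the genes with the most similar pattern over the 20 types were listed by Pearson correlation of log2(CPM + 1), among 12846 other genes (12847 for Hcrtr1) that reached 20 CPM in some type. The types share libraries and differ in depth, so the values are descriptions. For Hrh1 they were Src (0.75), Gm13872, Pisd, Fam124a and Sema4a. For Hrh2 they were Clnk (0.92), Plxna4os2, Vstm2a, Hook2 and Plxna4os3. For Hrh3 they were Rab3c (0.71), Gm46102, Gm28198, Rhbdl1 and Galntl6. For Hcrtr1 they were Tcte1 (0.76), Lztr1, Cpa6, Clk3 and Rab26, and Cpa6 also led corticothalamic sub-cluster 4. For Hcrtr2 they were Gm30003 (0.80), Rph3a, Dpysl5, Nrip3 and A830018L16Rik. Ranked by Spearman correlation instead, 3, 2, 1, 2 and 0 of these 5 remained for Hrh1, Hrh2, Hrh3, Hcrtr1 and Hcrtr2.

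Other genes of the histamine and orexin systems place the receptors in context. Hdc, the enzyme that makes histamine, gave 47 UMIs in all, and Hcrt, the precursor of both orexins, gave 145, spread over types at 1.46 CPM or less. Hnmt, the methyltransferase that breaks down histamine in the brain, was highest in microglia (43.9 CPM from 53 UMIs), layer 6 corticothalamic neurons (33.9, 28.3, 27.3 and 30.04 CPM) and near-projecting neurons (27.6 CPM). Maob, a monoamine oxidase that acts on the methylated product, was highest in astrocytes (92.9 CPM). Of the Gq genes, Plcb1 (2462 CPM) and Itpr1 (814 CPM) were highest in striatal projection neurons, and none of the 14 peaked in astrocytes. Of the 10 Gs genes, Adcy2 (1520 CPM), Adcy3 and Prkaca were highest in near-projecting neurons, and the rest peaked in other types. The share of all genes that peak in near-projecting neurons is not given here, so no link to Hrh2 is drawn. Of the Gi/o genes, Rgs7, a regulator that speeds the turning off of Gi/o proteins, was highest in Lamp5 interneurons (1190 CPM), the type highest in Hrh3. It was the only one of the 9 to peak there: Gnao1 was highest in astrocytes, Kcnj3 in Pvalb interneurons and Kcnj6 in layer 2/3 neurons.

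The first comparison asks how the receptors differ between the sleep-deprived and the ad lib library. A ratio is the sleep deprivation level over the ad lib level. It counts as past 1.5-fold in types of at least 100 nuclei in both libraries where both libraries together gave at least 20 UMIs. In excitatory neurons as a whole, Hrh3 was lower in the sleep deprivation library (43.2 against 24.6 CPM, ratio 0.569, interval 0.519 to 0.623). Hcrtr1 was higher (0.993 against 2.22 CPM, ratio 2.24, interval 1.44 to 3.55), from 31 and 65 UMIs. Hcrtr2 (11.7 against 17.4 CPM, ratio 1.49, 1.298 to 1.71) and Hrh1 (12.98 against 19.05 CPM, ratio 1.47, 1.29 to 1.67) were higher but under 1.5-fold. In nuclei of 5000 to 10000 and of 10000 to 20000 UMIs, Hcrtr2 had ratios of 1.66 and 2.15, past 1.5-fold in both bands. Hcrtr1 had 3.34 and 3.52 there, from 11 and 10 UMIs (ad lib and sleep deprivation) in the lower band and 12 and 39 in the upper band, and Hrh1 had 1.53 and 1.42. Hrh2 was at 19.4 and 19.6 CPM (ratio 1.01, 0.897 to 1.13). So 2 of 5 receptors were past 1.5-fold, beside 14.6% of the 19031 genes of these nuclei. In inhibitory neurons none of the 4 receptors with enough UMIs was past 1.5-fold, beside 12.1% of genes. There Hrh3 had a ratio of 0.878 (0.760 to 1.01) and Hcrtr2 one of 1.07 (0.862 to 1.32). Whether the ratios differ between the classes was not tested.

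Over the 12 types with enough nuclei, 34 receptor values could be compared, and 10 were past 1.5-fold higher and 6 lower. Over all genes measured in the same 12 types, 6.67% of values were past 1.5-fold higher (3.67% to 10.5% in a type) and 10.8% lower (9.04% to 15.8%). The types share the same pair of libraries, so these 34 values are not independent.

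Hrh3 accounted for 5 of the 6 lower values. In layer 5 intratelencephalic neurons it was at 88.8 CPM in the ad lib library and 46.9 in the sleep deprivation library (ratio 0.529, 0.453 to 0.616). Layer 4/5 gave 78.1 and 45.1 CPM (0.577, 0.464 to 0.716), layer 6 intratelencephalic neurons 36.1 and 15.9 CPM (0.439), and corticothalamic neurons 15.2 and 5.69 CPM (0.374). The fifth was astrocytes (0.455, 0.243 to 0.812, from 44 and 17 UMIs), where Slc17a7 had a ratio of 1.03 (0.843 to 1.27). In astrocytes of 3000 to 10000 UMIs the Hrh3 ratio was 0.587, with an interval that includes 1 (0.279 to 1.21). In those of 1000 to 3000 UMIs it was 0.138, from 24 and 1 Hrh3 UMIs. In layer 5 intratelencephalic neurons both SIK3 libraries lay between the ad lib and sleep deprivation values, at 82.0 and 56.3 CPM. Layer 2/3 intratelencephalic neurons had a ratio of 0.740 (0.546 to 1.002). Other neurons gave ratios near 1 over all their UMIs: layer 5 extratelencephalic 1.06 (0.829 to 1.36), Pvalb 1.002 (0.799 to 1.25), Sst 1.03 (0.766 to 1.39) and striatal projection neurons 0.934 (0.75 to 1.17). After thinning to 2000 UMIs per nucleus, layer 5 extratelencephalic, Pvalb and striatal neurons had 0.589, 0.603 and 0.607, all with intervals that include 1, so their ratios moved by over 1.5 times. The cause was not tested. In excitatory nuclei of like depth Hrh3 had ratios of 0.587 (5000 to 10000 UMIs) and 0.603 (10000 to 20000 UMIs). In excitatory neurons Slc17a7 had a ratio of 1.10 and mitochondrial UMIs made up 0.380% and 0.410% of the total, while Hrh3 in the low-depth nuclei was at 68.3 and 72.1 CPM. In layer 5 intratelencephalic nuclei of like depth the ratios were 0.544 and 0.763 in the lower and the upper band. In the upper band layer 4/5 had 0.779 (0.551 to 1.11) and corticothalamic nuclei had 0.603 (0.299 to 1.21), so both intervals included 1 there. In the lower band they had 0.608 and 0.356.

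**Figure D3:**
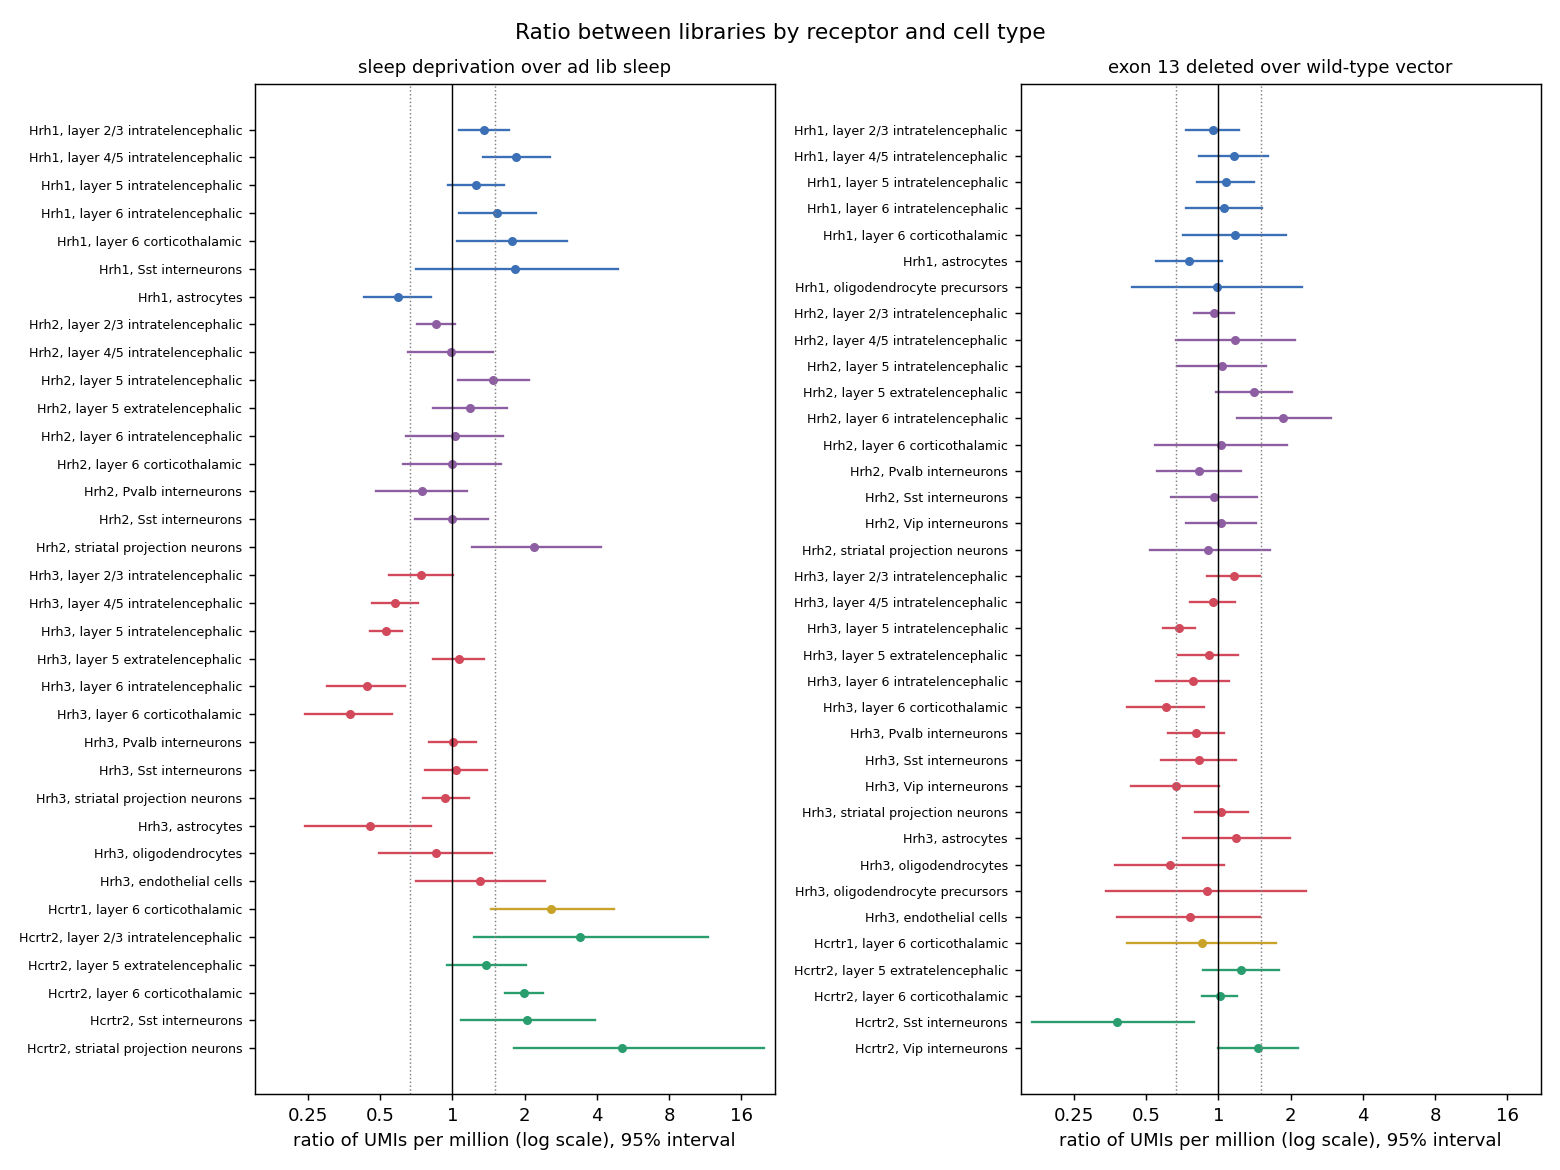
Ratio of levels between the libraries of each comparison, on a log axis, for each receptor and cell type with enough nuclei and UMIs; points are ratios, bars are exact 95% intervals for counting error, and dotted lines mark 1.5-fold. Hrh3 lies left of 1 in intratelencephalic and corticothalamic neurons (0.374 to 0.577 where past 1.5-fold) and Hcrtr2 right of 1 in corticothalamic neurons (1.98) in the sleep deprivation comparison.

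The orexin receptors were higher in the sleep deprivation library in layer 6 corticothalamic neurons. Hcrtr2 was at 28.7 CPM in the ad lib library and 56.9 in the sleep deprivation library (ratio 1.98, 1.66 to 2.38), and Hcrtr1 at 2.70 and 6.93 CPM (2.57, 1.45 to 4.71) from 19 and 39 UMIs. Of the genes of this type, 3.67% were past 1.5-fold higher. Both SIK3 libraries had Hcrtr2 levels (48.8 and 49.5 CPM) nearer the sleep deprivation value, so for Hcrtr2 in the whole type the ad lib library stood apart. For Hcrtr1 both SIK3 libraries lay nearer the ad lib value. In nuclei of like depth the Hcrtr2 ratios were 1.61 and 1.65 in the lower and the upper band. The sub-clusters gave 1.56 (sub-cluster 3, with 70 nuclei in the sleep deprivation library), 3.89 (sub-cluster 4, 2.72 to 5.66) and 1.60 (sub-cluster 10, 1.07 to 2.40). Their shares of corticothalamic nuclei also differed: sub-cluster 10 made up 41.9% in the ad lib and 51.7% in the sleep deprivation library. Within sub-cluster 4, Hcrtr2 with Ex13del SIK3 (29.98 CPM) was nearer the ad lib (15.9 CPM) than the sleep deprivation value (62.1 CPM). In Sst interneurons Hcrtr2 had a ratio of 2.04 (1.08 to 3.93) from 18 and 27 UMIs. In striatal projection neurons (4 and 33 UMIs, ratio 5.09, 1.81 to 19.8) and layer 2/3 neurons (5 and 19 UMIs, ratio 3.40, 1.23 to 11.6) it was past 1.5-fold from a level near 0. In layer 5 extratelencephalic neurons it was at 18.5 and 25.5 CPM (1.38, 0.950 to 2.02).

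Hrh1 went opposite ways in neurons and astrocytes. In layer 4/5 intratelencephalic neurons it was at 19.8 CPM in the ad lib library and 36.6 in the sleep deprivation library (ratio 1.84, 1.34 to 2.56). Corticothalamic neurons (1.76, 1.05 to 3.001) and layer 6 intratelencephalic neurons (1.53, 1.07 to 2.22) were also past 1.5-fold higher, and Sst interneurons had 1.81 (0.702 to 4.88). Layer 2/3 neurons had 1.35 (1.07 to 1.72). In astrocytes Hrh1 was at 73.4 and 43.5 CPM (0.593, 0.430 to 0.811), where 9.45% of genes were past 1.5-fold lower. Within astrocytes of like depth the ratios were 0.191 (1000 to 3000 UMIs per nucleus) and 0.628 (3000 to 10000). The first came from 52 Hrh1 UMIs in the ad lib and 3 in the sleep deprivation library. In layer 4/5 nuclei of like depth they were 1.66 and 1.23, with intervals that include 1. Summed over 7 astrocyte markers, layer 4/5 neurons had 887 and 859 CPM. Summed over 7 striatal markers, astrocytes had 129 CPM in the ad lib and 484 CPM in the sleep deprivation library. The part of this difference in the Hrh1 result was not tested.

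Hrh2 showed few differences. It was past 1.5-fold in 1 of 9 types, the striatal projection neurons (8.26 and 18.0 CPM, ratio 2.18, 1.21 to 4.16, from 15 and 53 UMIs), and in layer 5 intratelencephalic neurons it had 1.48 (1.06 to 2.08). In Sst interneurons (0.991, 0.696 to 1.40) and layer 2/3 neurons (0.855, 0.713 to 1.02) the intervals include 1 and do not reach 1.5-fold. They cover counting error between 2 libraries only, so they cannot exclude a 1.5-fold difference between the conditions. Vip and near-projecting nuclei, the types highest in Hrh2, had fewer than 100 nuclei in the sleep deprivation library. Their ad lib and sleep deprivation levels were 64.4 and 68.2 CPM and 82.4 and 69.1 CPM. The same limit applies to Lamp5 nuclei, where Hcrtr2 was at 126.9 and 122.6 CPM and Hrh3 at 114.5 and 105.1 CPM.

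**Figure D4:**
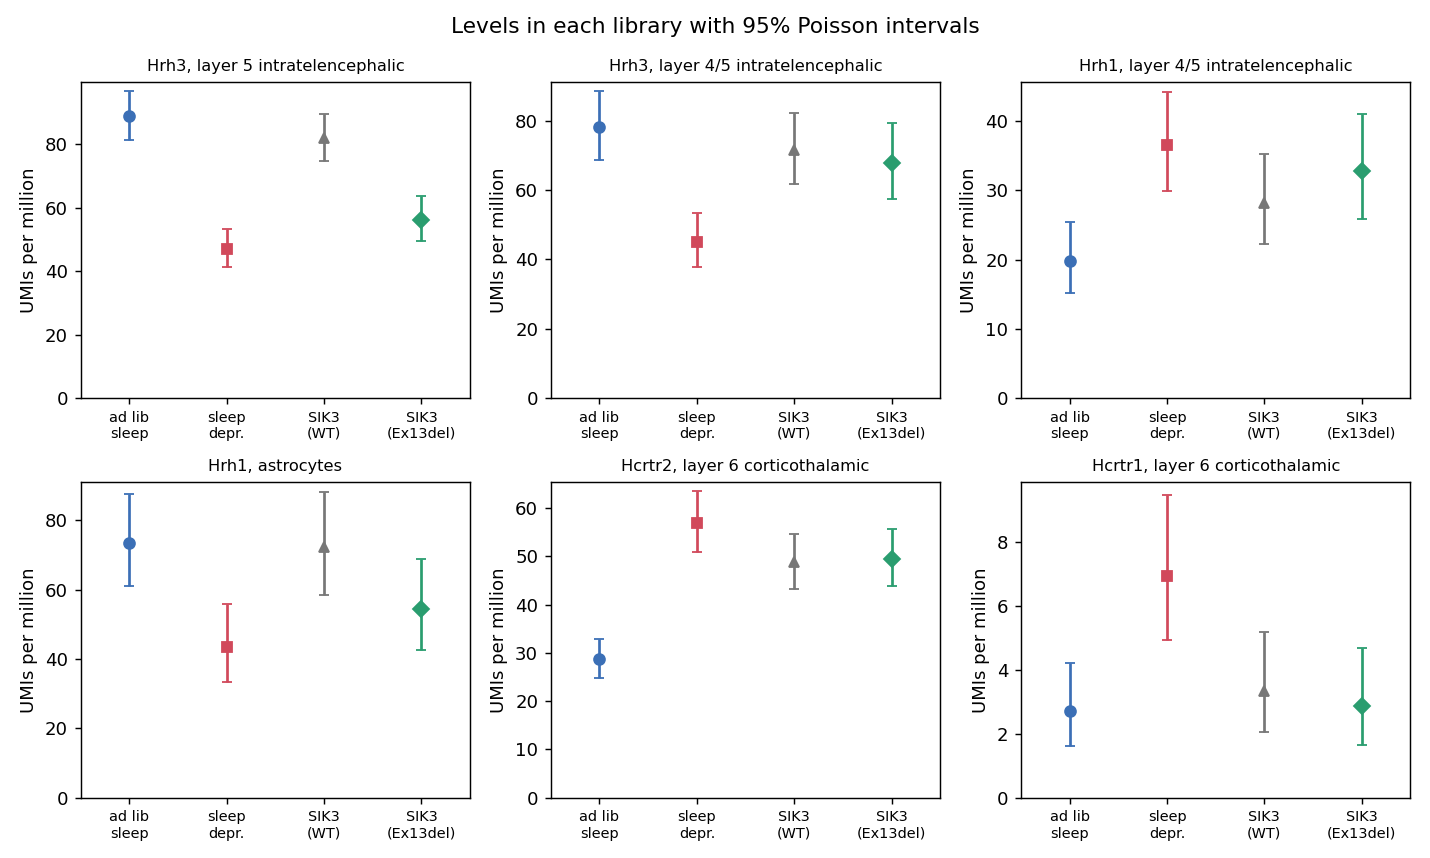
Levels of Hrh1, Hrh3, Hcrtr1 and Hcrtr2, in CPM, in each of the 4 libraries for the cell types with the lead differences; points are library values and bars are exact 95% Poisson intervals. Hrh3 in layer 5 intratelencephalic neurons is at 46.9 in the sleep deprivation library against 88.8 in the ad lib library, and Hcrtr2 in corticothalamic neurons is at 28.7 in the ad lib library against 48.8 to 56.9 in the others.

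The second comparison sets the Ex13del SIK3 vector against the WT SIK3 vector, with surgery and virus in both, and shares no library with the first. In excitatory neurons none of the 5 receptors was past 1.5-fold, beside 9.19% of the 18796 genes. Hrh3 was at 41.6 CPM with WT SIK3 and 31.3 with Ex13del SIK3 (ratio 0.753, interval 0.687 to 0.825). The others were closer to 1. Hrh1 had a ratio of 1.05 (0.922 to 1.21), Hrh2 of 1.07 (0.937 to 1.22), Hcrtr1 of 0.943 (0.521 to 1.69) and Hcrtr2 of 1.09 (0.956 to 1.24). Over all excitatory nuclei, the Hcrtr1 interval alone among these 4 reaches 1.5-fold, and all 4 cover counting error only. In nuclei of like depth Hcrtr2 had 0.823 (0.640 to 1.05) in the lower band and 1.54 (1.27 to 1.87) in the upper band, so the bands lay on opposite sides of 1. In inhibitory neurons Hrh3 was at 56.7 and 44.8 CPM (0.791, 0.670 to 0.934), and none of 4 receptors was past 1.5-fold, beside 7.88% of genes.

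By type, 36 receptor values could be compared, and 1 was past 1.5-fold higher and 3 lower. Over all genes in the 15 types, 7.86% of values were higher (6.11% to 12.7% in a type) and 5.38% lower (2.4% to 10.6%), so the receptor counts are near the background. The higher value was Hrh2 in layer 6 intratelencephalic neurons (12.9 and 24.1 CPM, ratio 1.86, 1.20 to 2.95). The lower values were Hrh3 in corticothalamic neurons (14.3 and 8.63 CPM, 0.606, 0.416 to 0.873), Hrh3 in oligodendrocytes (0.630, 0.372 to 1.05), and Hcrtr2 in Sst interneurons (15.9 and 6.02 CPM, 0.380, 0.167 to 0.792, from 32 and 10 UMIs). Hrh3 in layer 5 intratelencephalic neurons was at 82.0 and 56.3 CPM (0.686, 0.586 to 0.802). In corticothalamic neurons Hcrtr2 had a ratio of 1.01 (0.857 to 1.20) and Hrh1 one of 1.17 (0.713 to 1.92). In astrocytes Hrh1 was at 72.3 and 54.6 CPM (0.755, 0.547 to 1.04).

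Set side by side, the ratio of Hrh3 was below 1 in both comparisons in 5 of 12 types, above 1 in both in 0, and on opposite sides in 7. Layer 2/3 neurons were among the latter (0.740 and 1.16). Layer 5 intratelencephalic neurons (0.529 and 0.686), layer 4/5 (0.577 and 0.947) and layer 6 intratelencephalic neurons (0.439 and 0.782), corticothalamic neurons (0.374 and 0.606) and oligodendrocytes (0.853 and 0.630) were the 5 below 1. Between the vectors the Hrh3 interval lay below 1 in only 2 of 14 types, the layer 5 intratelencephalic and the corticothalamic neurons. For Hrh1 both ratios were above 1 in 4 of 6 types and below 1 in astrocytes. The share of all genes on the same side of 1 in both comparisons is not given here, so these counts are descriptions. Excitatory nuclei were deeper in the sleep deprivation than the ad lib library (medians of 13990 and 7408 UMIs). They were also deeper with Ex13del than with WT SIK3 (9967 and 9141 UMIs). For Hrh3 between the vectors, layer 5 intratelencephalic nuclei of like depth had ratios of 0.677 and 0.697 in the lower and the upper band. Corticothalamic nuclei had 0.745, with an interval that includes 1, and 0.444. Layer 4/5 nuclei had 0.926 and 1.05, both with intervals that include 1, so the upper band lay above 1. The part of depth in the counts over all types was not tested.

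For the 44 genes listed for histamine handling, the orexin precursor and the signalling of the receptors, counts past 1.5-fold are given beside the share over all genes. In excitatory neurons of the sleep deprivation library, 0 of 6 measured histamine genes were past 1.5-fold, and Hcrt was lower (ratio 0.577, 0.317 to 1.02) from 37 and 20 UMIs. Among the Gq genes, Gna14, a Gq family alpha subunit, was lower (0.370, 0.200 to 0.654) from 49 and 17 UMIs. Of 10 Gs genes, Adcy9, an adenylyl cyclase, was higher (1.53, 1.47 to 1.59), and 0 of 9 Gi/o genes were past 1.5-fold, beside 14.6% of all genes in these nuclei. The median log2 ratio was 0.21 for the Gq genes and -0.34 for the histamine genes, beside -0.06 for all genes. In astrocytes, where 18.3% of genes were past 1.5-fold, Plcb1, the phospholipase that Gq activates, was higher (1.61, 1.52 to 1.71), as was the channel gene Trpc4 from 7 and 19 UMIs. Adcy2 (0.569), Rgs7 (0.645), the potassium channel gene Kcnj3 (0.663) and Maoa (0.665) were lower there, and Kcnj6 (1.75) and Adcy8 (1.57, 0.895 to 2.78) were higher. In inhibitory neurons none of the measured genes of the 5 lists was past 1.5-fold in the sleep deprivation comparison, beside 12.1% of all genes. Between the vectors, none of the listed genes was past 1.5-fold in excitatory neurons, beside 9.19% of all genes. In inhibitory neurons Maoa was lower with Ex13del SIK3 (0.648, 0.472 to 0.884), and Slc29a4, Maob and Plcb3 were past 1.5-fold from 27 UMIs or fewer, beside 7.88% of all genes.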

How the data were processed

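Single nuclei were profiled with 10x Chromium 3' v3.1 chemistry, and the authors deposited raw UMI counts. Per the submitters' processing notes the tool was Cell Ranger 6.1.2 and the genome build mm10. Whether introns and strand were counted is not given in the sources used here. Nuclei with at least 500 genes and under 5% mitochondrial UMIs were kept. Scrublet's automatic threshold called 0 to 4 doublets per library, so the highest scores were removed at 0.8% per 1000 barcodes. This left 25408 nuclei (1534 failed the filters and 1677 were called doublets).

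Nuclei were clustered with scanpy 1.11.5 (2000 variable genes, 30 components, 15 neighbours, resolution 1) without the receptor genes and listed genes. Of 25 clusters 20 types were named and 5 clusters were not. The thresholds for naming, the sub-clusters and the depth bands were chosen after seeing the data, and the receptors and gene lists with earlier results of these data known. Counts were summed per type and library and divided by the summed total (CPM). Ratios carry exact conditional intervals from scipy 1.17.1. With 1 library per group no test of a condition was made. UMI intervals and limits for a count of 0 (3 UMIs) cover counting error only.

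Named genes were the 5 receptors, Hdc, Hnmt and Hcrt, the leading members of 5 pathway lists (44 genes) by level, every list member past 1.5-fold with at least 20 UMIs, and the 5 genes most like each receptor. The alternatives were a stricter filter, resolution 2, doublets kept, thinning to 2000 UMIs, no centring of libraries before clustering, scaling factors from edgeR 4.0.16 and DESeq2 1.42.0, a minimum of 1 UMI, Spearman correlation and, added after seeing the data, levels without the sleep deprivation library. The scripts were tested on simulated data. The result of 1 listed gene is not reported here.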

Additional observations from a re-analysis of the deposited data

Results flagged for a closer look

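The ratio of Hrh1 between the sleep deprivation and the ad lib library lay on opposite sides of 1 in 2 cell types. It was 1.84 in layer 4/5 intratelencephalic neurons and 0.593 in astrocytes, and neither counting interval included 1 over all nuclei. In layer 4/5 nuclei of like depth the ratios were 1.66 (0.855 to 3.14) and 1.23 (0.757 to 2.03), so both intervals included 1. In astrocytes of like depth they were 0.191 (0.0382 to 0.590) and 0.628 (0.435 to 0.902). The difference between the types was not tested, because each group is 1 library.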

How the results depend on the processing

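No paired analysis was possible because each group has 1 library. No ratio past 1.5-fold crossed 1 under the alternatives, but some ratios near 1 did. Of 30 recomputed levels, 26 stayed within their spread, as did 246 of 259 sleep deprivation ratios and 256 of 266 vector ratios within their intervals. Hrh2 in Vip interneurons was at 69.6 CPM at resolution 2, 60.1 CPM with doublets kept and 60.2 CPM after thinning to 2000 UMIs per nucleus. Hcrtr2 in Lamp5 interneurons was at 93.0 CPM at resolution 2. After thinning, the excitatory ratios were 0.767 for Hrh2 in the sleep deprivation comparison, and 0.907 for Hrh1 and 0.891 for Hrh2 between the vectors. All 3 had been above 1, and the cause was not tested. With no minimum beyond 1 UMI in each library, 23.4% and 19.5% of genes were past 1.5-fold in excitatory neurons, where low counts enter. Layer 6 intratelencephalic neurons took no name with doublets kept, and pericytes and fibroblasts took none under the stricter filter. Depth limits Hcrtr1 most, with 177 UMIs.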
